A study of Mus musculus with 7 samples.

Results

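Chemokines and their receptors were described in the lesional skin of mice that lacked or carried OX40L. They were chosen by gene symbol alone: symbols that begin with Ccl, Cxcl, Ccr or Cxcr followed by a digit, Ackr1 to Ackr4, Xcl1, Xcr1, Cx3cl1, Cx3cr1, Pf4 and Ppbp. This gave 58 genes, each with 1 probe set, among the 23185 named genes on the arrays: 36 ligands, 18 signalling receptors and 4 atypical receptors. Family members without a named probe set were not analysed here. Skin RNA was hybridised to Affymetrix arrays, 4 from ox40l-/- and 3 from ox40l+/+ mice. All 7 samples came from male C57BL/6 mice aged 9 weeks and injected with bleomycin for 3 weeks, a common way to provoke skin fibrosis. OX40L, the product of Tnfsf4, is a costimulatory ligand for OX40, a receptor on activated T cells. The series title links OX40L to fibrosis that follows inflammation, and the comparison made here is the genotype difference in treated skin. No untreated skin was compared, so nothing below is a response to bleomycin, and the labels do not say how the allele was made or whether each array came from its own animal.

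Chemokines are small secreted proteins that direct the movement of leukocytes. Most inflammatory chemokines are made by stromal cells, keratinocytes and leukocytes after injury, while homeostatic chemokines are made steadily and position cells in tissues and lymphoid organs. Their receptors couple to inhibitory G proteins, and the atypical receptors take up ligand without that coupling. Bleomycin-injured skin recruits monocytes and other leukocytes, and the CCL2 and CCR2 pair is a well-known chemokine axis of such recruitment. All values here are log2 levels of whole skin, on which fewer cells of a type and less RNA per cell cannot be told apart. Levels are compared between arrays for 1 probe set at a time and not between genes.

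The arrays were unequal before any gene was compared. Over the 23185 named genes the standard deviation of the log2 values was 1.32 to 1.42 on the ox40l-/- arrays, against 1.67, 1.40 and 1.17 on ox40l+/+ replicates 1, 2 and 3. Pairs of arrays correlated at Pearson's r of 0.951 to 0.966 across genes, except pairs that held ox40l+/+ replicate 1 or 3, at 0.751 to 0.910. Actb, mentioned after its values were seen, was at 6.61, 6.12, 5.71 and 7.01 in ox40l-/- skin. On ox40l+/+ replicates 1, 2 and 3 it was at 9.97, 6.90 and 3.03, and the cause was not tested. Markers of skin were well above the middle of the arrays: Krt14, a basal keratin, was at 10.24 to 10.67 in ox40l-/- and 9.54 to 10.94 in ox40l+/+ skin, where the median gene level was 3.60. The 6 skeletal muscle markers averaged 9.43 to 10.14 in ox40l-/- and 7.73 to 9.79 in ox40l+/+ skin. Tnfsf4, the targeted gene, was at 2.81 to 3.35 in ox40l-/- and 2.53 to 3.65 in ox40l+/+ skin, and its probe set was not known to lie in the deleted part, so it checks nothing about the labels.

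No chemokine or receptor separated the genotypes by the test across all genes. In limma, 0 of 58 had an adjusted p under 0.05, while 0.00431% of all genes did, and the adjusted p was 0.9995 for 57 of the 58 and 0.9998 for the other. At an unadjusted p under 0.05 there were 0 of 58 as well, against 1.88% of all genes. The median difference, ox40l-/- minus ox40l+/+, was 0.08 over the 58 and 0.01 over all genes. Of the 58 differences, 35 were positive (60.3%, against 51.7% of all genes) and 23 negative. Without ox40l+/+ replicate 1, 26 of the 58 were positive. The differences ran from -0.76 for Ccl7, a monocyte chemoattractant, to 0.52 for Cxcl11, a ligand of CXCR3. For 44 of the 58 the 95% confidence interval lay within 2-fold either way, and for 14 it reached past 2-fold, so a difference of that size was within the error of those genes. Each difference below is followed by its leave-one-out range, the lowest and highest value with any 1 of the 7 arrays left out. The intervals of all 58 held 0, as the plot of differences by gene shows.

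**Figure D1:**
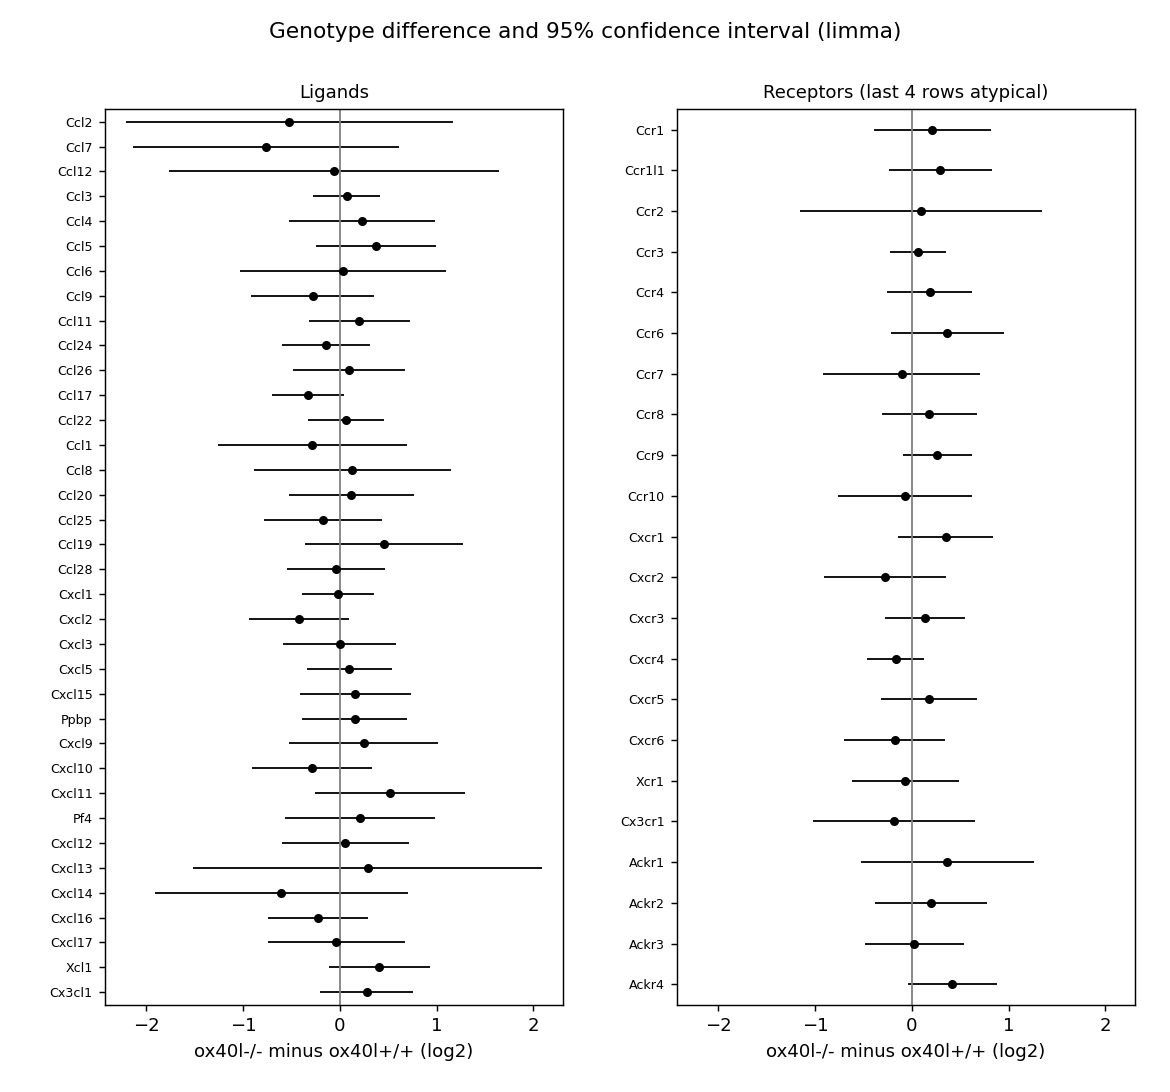
Difference in log2 level, ox40l-/- minus ox40l+/+, for each ligand (left) and receptor (right), with limma's 95% confidence interval as the bar. The intervals of all 58 genes include 0, and those of Ccl2, Ccl7, Ccl12 and Cxcl13 are the widest of the 58.

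Spread between arrays was larger within ox40l+/+ than within ox40l-/- skin for most of these genes. The median standard deviation was 0.24 in ox40l-/- and 0.42 in ox40l+/+ skin over the 58 genes, against 0.19 and 0.39 over all genes. It was larger in ox40l+/+ skin for 45 of the 58 (77.6%), and for 76.9% of all genes. The 19 members whose mean lay below the median of all genes were all lower on ox40l+/+ replicate 1 than on replicate 3, as were 79.2% of all genes below it. Of the 39 above the median, 21 (53.8%) were higher on replicate 1, against 59.7% of all such genes. In total 30 of the 58 (51.7%) had their lowest value on ox40l+/+ replicate 1, compared with 39.1% of all genes, and 16 (27.6%) had their highest on replicate 3, compared with 30.1% of all genes. The deposited values also repeat: 25 of the 58 had the same value to 6 decimals on at least 2 arrays (43.1%, against 54.3% of all genes), and Ccl3 on 5 of 7.

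**Figure D2:**
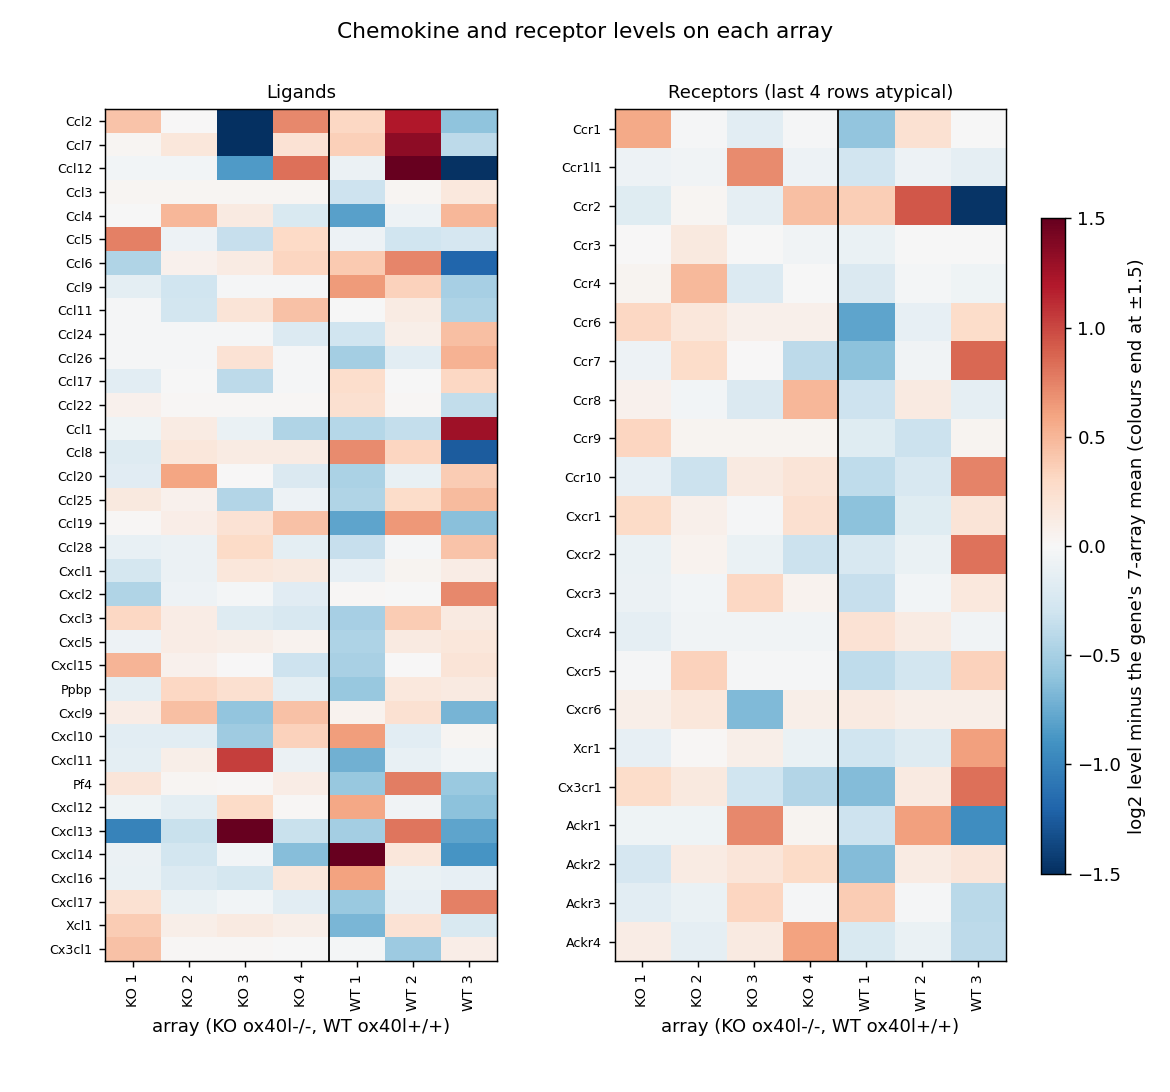
Log2 level of each gene minus its mean over the 7 arrays, with arrays in columns (4 ox40l-/- on the left of the line, 3 ox40l+/+ on the right) and genes in rows; red is above and blue below the mean, and colours end at 1.5. Ccl2 and Ccl7 are low and Cxcl13 high on ox40l-/- replicate 3, and no block of genes divides the genotypes.

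The ligands of CCR2, which call inflammatory monocytes out of the blood, had negative differences, none past the test, and wide spread between arrays. Ccl2 was at 6.71, 6.29, 4.24 and 7.01 in ox40l-/- skin, against 6.59, 7.48 and 5.68 in ox40l+/+ skin. Its lowest value was on ox40l-/- replicate 3 and its highest on ox40l+/+ replicate 2, and the genotypes overlapped. The difference was -0.52 (SE 0.72, 95% confidence interval -2.21 to 1.17, leave-one-out range -0.98 to 0.085). Ccl7, a neighbour of Ccl2 on chromosome 11, was at 6.64, 6.78, 4.89 and 6.83 in ox40l-/- skin, against 6.96, 7.96 and 6.22 in ox40l+/+ skin. Again ox40l-/- replicate 3 was lowest and ox40l+/+ replicate 2 highest, with a difference of -0.76 (SE 0.59, 95% confidence interval -2.14 to 0.61, leave-one-out range -1.18 to -0.30). Ccl12, a mouse CCR2 ligand of the same cluster, was at 6.01, 6.01, 5.20 and 6.87 in ox40l-/- skin, against 5.95, 7.74 and 4.56 in ox40l+/+ skin. Here ox40l+/+ replicate 3 was lowest, ox40l-/- replicate 3 next, and the difference was -0.06 (SE 0.73, 95% confidence interval -1.77 to 1.65, leave-one-out range -0.82 to 0.76). More than 1 array set these values. The Ccl2 difference was 0.085 without ox40l-/- replicate 3, -0.072 without ox40l+/+ replicate 2 and -0.98 without ox40l+/+ replicate 3. The Ccl7 difference was -0.30, -0.31 and -1.18 under the same omissions, and the Ccl12 difference 0.21, 0.76 and -0.82.

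Ccr2 itself, the receptor on inflammatory monocytes, was at 7.10, 7.31, 7.15 and 7.73 in ox40l-/- skin, against 7.65, 8.22 and 5.82 in ox40l+/+ skin. The ox40l-/- arrays lay together, while the ox40l+/+ arrays held both the highest value, on replicate 2, and the lowest, on replicate 3. Its difference was 0.09 (SE 0.53, 95% confidence interval -1.16 to 1.34, leave-one-out range -0.61 to 0.59). It was -0.61 without ox40l+/+ replicate 3 and 0.59 without ox40l+/+ replicate 2. The 5 measured monocyte and macrophage markers (1 of 5 higher in ox40l-/-) averaged 5.12 to 5.50 in ox40l-/- skin, against 5.74, 5.84 and 4.67 on ox40l+/+ replicates 1, 2 and 3, so they too were lowest on replicate 3. The 5 pan-leukocyte markers averaged 4.98 on ox40l-/- replicate 3 and 5.42 to 5.58 on the other ox40l-/- arrays, against 6.01, 5.56 and 4.29 on ox40l+/+ replicates 1, 2 and 3. Markers of keratinocytes, dermal fibroblasts, skeletal muscle, adipocytes, endothelium, dendritic and Langerhans cells and mast cells also averaged lowest on ox40l+/+ replicate 3. The part of monocyte content in the Ccr2 values was not tested. On ox40l-/- replicate 3 the 3 ligands were at their ox40l-/- minimum, while Ccr2, at 7.15, was not.

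The sequence before the start of Ccl12 is shown, by a choice made after its values were seen, because it was the only one of the 3 CCR2 ligands in the RefSeq promoter table used (build GRCm38.p6). These are the 250 bases upstream at chr11:82101595-82101844, plus strand, and the capitals mark a TATAAA match.
Ccl12: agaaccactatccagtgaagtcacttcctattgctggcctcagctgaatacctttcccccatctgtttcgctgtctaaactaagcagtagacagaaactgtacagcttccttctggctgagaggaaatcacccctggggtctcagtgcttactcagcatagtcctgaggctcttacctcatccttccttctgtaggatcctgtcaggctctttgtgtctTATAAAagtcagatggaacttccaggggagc
The letters TATAAA were looked for on both strands. They occurred in 15 of 46 upstream windows of 44 matched members (32.6%) and in 12.4% of the 32851 windows of all genes. A match is a description of these letters and not a measured binding site.

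**Figure D3:**
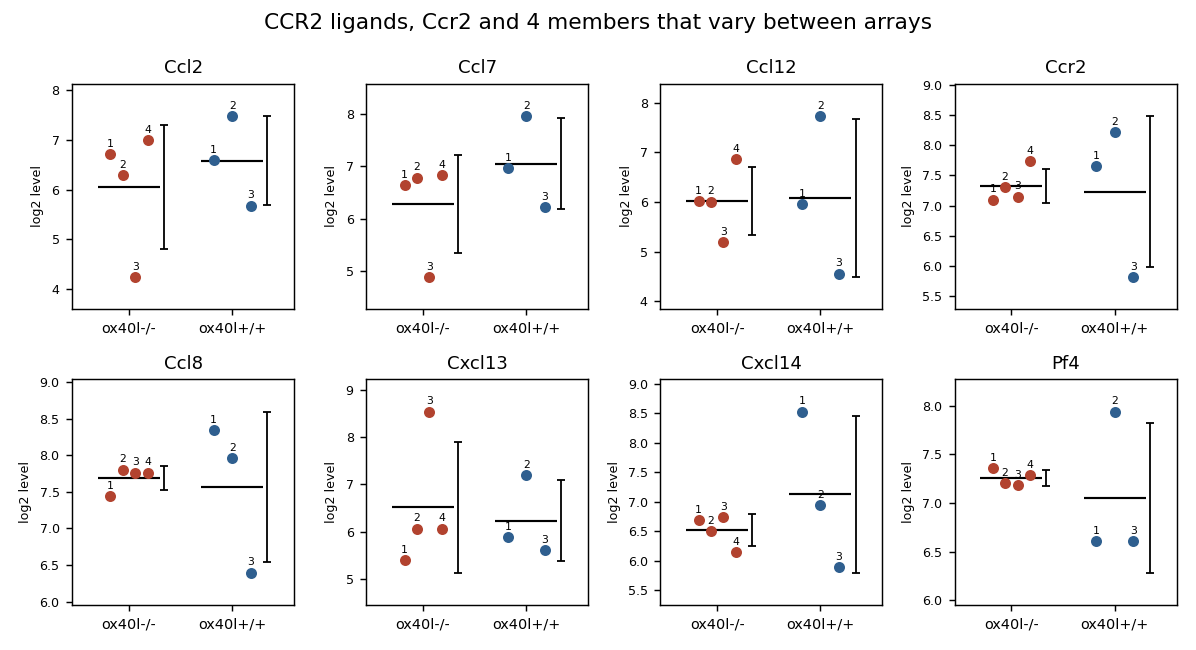
Log2 level per array (points, numbered by replicate; 4 ox40l-/- left, 3 ox40l+/+ right), group mean (line) and SD (bar) for the CCR2 ligands, Ccr2, Ccl8, Cxcl13, Cxcl14 and Pf4, genes picked after their values were seen. Replicate 3 of ox40l-/- is lowest for Ccl2 and Ccl7 and highest for Cxcl13, and the ox40l+/+ arrays are spread widely in most panels.

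Of the other CC ligands that act on CCR1 and related receptors, none differed in the test. Ccl5, made by T cells and NK cells among others, was at 7.45, 6.61, 6.35 and 6.999 in ox40l-/- skin, against 6.61, 6.40 and 6.44 in ox40l+/+ skin. Only ox40l-/- replicates 1 and 4 lay above all ox40l+/+ arrays, and the difference was 0.37 (SE 0.27, 95% confidence interval -0.25 to 0.99, leave-one-out range 0.17 to 0.54). Ccl9, a macrophage product in mice, differed by -0.28 (SE 0.27, leave-one-out range -0.61 to -0.044), with 5.24 to 5.52 in ox40l-/- skin and 5.04 to 6.18 in ox40l+/+ skin. The Ccl9 difference was -0.61 without ox40l+/+ replicate 3, -0.19 without replicate 2 and -0.044 without replicate 1. Ccl4 lay at 4.60 to 5.33 in ox40l-/- skin and 4.02 to 5.34 in ox40l+/+ skin, and Ccl6 at 4.13 to 4.90 in ox40l-/- skin and 3.40 to 5.32 in ox40l+/+ skin. Ccl3 had 4.12 on all ox40l-/- arrays and 3.79 to 4.26 in ox40l+/+ skin.

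Ccl17, a CCR4 ligand made by dendritic cells that draws type 2 helper and regulatory T cells, was 1 of 2 members whose genotypes did not overlap. It was at 3.33, 3.48, 3.10 and 3.47 in ox40l-/- skin, against 3.76, 3.48 and 3.80 in ox40l+/+ skin. Every ox40l-/- array was below every ox40l+/+ array, but the nearest pair was 0.00187 apart. The difference was -0.33 (SE 0.16, 95% confidence interval -0.70 to 0.04, leave-one-out range -0.43 to -0.25), with an unadjusted p of 0.0723. Ccl22, the other CCR4 ligand, lay at 3.62 to 3.67 in ox40l-/- skin and 3.24 to 3.85 in ox40l+/+ skin, and Ccr4, their receptor on those T cells, at 2.62 to 3.31 in ox40l-/- skin and 2.61 to 2.79 in ox40l+/+ skin. The 6 measured T cell markers averaged 3.57 to 3.67 in ox40l-/- and 3.25 to 3.59 in ox40l+/+ skin, with 4 of 6 higher in ox40l-/-. Of the 6, 2 (Cd3d and Cd3g) had every ox40l-/- array above every ox40l+/+ array, and 0 had every one below. Among the 58 members, 0 had every ox40l-/- array above every ox40l+/+ array. Of all genes, 1.1% had every ox40l-/- array above, and 0.815% had every one below, as Ccl17 did.

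Cxcl2, a CXCR2 ligand that attracts neutrophils, was the other member without overlap and likewise lower in ox40l-/- skin. It was at 4.41, 4.79, 4.83 and 4.68 in ox40l-/- skin, against 4.88, 4.85 and 5.58 in ox40l+/+ skin. The nearest values of the genotypes were 0.0190 apart, and ox40l+/+ replicate 3 stood above the rest. The difference was -0.42 (SE 0.22, 95% confidence interval -0.94 to 0.09, leave-one-out range -0.55 to -0.19), with an unadjusted p of 0.0942, and without ox40l+/+ replicate 3 it was -0.19. Among the other CXCR2 ligands, Cxcl1 lay at 3.37 to 3.81 in ox40l-/- skin and 3.51 to 3.75 in ox40l+/+ skin, Cxcl3 at 2.53 to 3.09 in ox40l-/- skin and 2.27 to 3.15 in ox40l+/+ skin and Cxcl5 at 2.75 to 2.94 in ox40l-/- skin and 2.37 to 3.01 in ox40l+/+ skin. Cxcl15 lay at 2.07 to 2.90 in ox40l-/- skin and 1.90 to 2.58 in ox40l+/+ skin. Ppbp, the platelet CXCR2 ligand, lay at 4.02 to 4.47 in ox40l-/- skin and 3.60 to 4.33 in ox40l+/+ skin. The receptors also overlapped: Cxcr2, the neutrophil receptor, differed by -0.28 (SE 0.27, leave-one-out range -0.48 to 0.054) and Cxcr1 by 0.35 (SE 0.21, leave-one-out range 0.14 to 0.55). Cxcr1 was at 3.59, 3.38, 3.29 and 3.55 in ox40l-/- skin, against 2.69, 3.12 and 3.498 in ox40l+/+ skin, with ox40l+/+ replicate 1 the low value. The 5 neutrophil markers averaged 4.28 to 5.39 in ox40l-/- and 4.30 to 5.25 in ox40l+/+ skin, with 2 of 5 higher in ox40l-/-. S100a8 and Retnlg were picked from them after their values were seen. S100a8, a calprotectin subunit, was at 8.27, 9.28, 5.78 and 6.96 in ox40l-/- and at 9.61, 7.93 and 6.24 in ox40l+/+ skin. Retnlg lay at 3.15 to 3.20 in ox40l-/- skin, above its 2.72 to 2.99 in ox40l+/+ skin. It was 1 of the 5 to lie so, against 1.1% of all genes.

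The upstream sequences of the 2 members without overlap are shown in the same way, from build GRCm38.p6: Cxcl2 at chr5:90903649-90903898 and Ccl17 at chr8:94810203-94810452, both plus strand. In Cxcl2 the capitals mark 2 overlapping matches of the kappa-B pattern (GGGA, any 4 bases, CC), at 97 and 96 bases before the start, where transcription factors of the NF-kappa-B family are known to bind in many inflammatory promoters. Ccl17 held no match of the 6 patterns searched, so it has no capitals.
Cxcl2: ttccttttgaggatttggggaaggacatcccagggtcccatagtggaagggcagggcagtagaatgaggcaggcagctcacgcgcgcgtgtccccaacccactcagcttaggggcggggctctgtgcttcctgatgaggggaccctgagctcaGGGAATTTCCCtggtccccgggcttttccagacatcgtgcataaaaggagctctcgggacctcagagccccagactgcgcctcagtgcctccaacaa
Ccl17: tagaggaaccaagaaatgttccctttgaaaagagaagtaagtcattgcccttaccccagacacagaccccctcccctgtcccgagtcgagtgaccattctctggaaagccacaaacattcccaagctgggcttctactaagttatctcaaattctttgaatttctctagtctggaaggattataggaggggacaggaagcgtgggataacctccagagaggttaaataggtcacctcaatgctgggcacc
The kappa-B letters were searched for on both strands. They were found in 17 of 46 member windows (37.0%) and in 17.6% of all windows. The ligands among these members were Cxcl1, Cxcl2, Cxcl3, Cxcl9, Cxcl10, Cxcl13, Ccl1, Ccl19, Ccl20 and Ccl22. The receptors among them were Ackr2, Ccr1, Ccr3, Ccr6, Ccr8, Ccr9 and Cxcr1. The interferon response pattern (GAAA, any 2 bases, GAAA) was in 3 of 46 (6.52%), those of Ccl19, Cxcl10 and Cxcl14, and in 2.98% of all. The other 3 patterns searched, also on both strands, were AP-1 (TGA, 1 free base, TCA), in 5 of 46 (10.9%) and 6.75% of all, C/EBP (TTGC, 2 free bases, AA), in 3 of 46 (6.52%) and 9.56% of all, and the cyclic AMP response element (TGAC directly before GTCA), in 0 of 46 and 1.55% of all.

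The ligands of CXCR3, a receptor of activated T cells and NK cells, had differences of both signs, 3 positive and 1 negative. Cxcl9, Cxcl10 and Cxcl11 are known to be induced by interferon. Cxcl9 was at 6.12, 6.46, 5.42 and 6.44 in ox40l-/- skin, against 6.06, 6.23 and 5.31 in ox40l+/+ skin, with 1 array of each genotype (replicate 3) lower than the rest. Its difference was 0.24 (SE 0.33, 95% confidence interval -0.53 to 1.02, leave-one-out range -0.034 to 0.47). Cxcl10 was at 3.501, 3.501, 3.12 and 4.00 in ox40l-/- skin, against 4.28, 3.501 and 3.69 in ox40l+/+ skin, with a difference of -0.29 (SE 0.26, 95% confidence interval -0.91 to 0.33, leave-one-out range -0.45 to -0.064). Cxcl11 was at 3.83, 4.07, 5.02 and 3.89 in ox40l-/- skin, against 3.26, 3.87 and 3.94 in ox40l+/+ skin. The highest Cxcl11 value was on ox40l-/- replicate 3, the array with the lowest Cxcl10 value, and the Cxcl11 difference was 0.52 (SE 0.33, 95% confidence interval -0.26 to 1.29, leave-one-out range 0.24 to 0.64). Cxcr3 was at 3.98, 4.03, 4.38 and 4.13 in ox40l-/- skin, against 3.72, 4.03 and 4.24 in ox40l+/+ skin and differed by 0.13 (SE 0.18, leave-one-out range -0.0023 to 0.25). Pf4, a platelet chemokine that some macrophages also make, was at 7.36, 7.20, 7.18 and 7.29 in ox40l-/- skin, against 6.61, 7.94 and 6.61 in ox40l+/+ skin. Replicates 1 and 3 of ox40l+/+ lay below all ox40l-/- arrays and replicate 2 above them. The difference was 0.21 (SE 0.33, 95% confidence interval -0.57 to 0.98, leave-one-out range -0.017 to 0.65). It was 0.65 without ox40l+/+ replicate 2, -0.017 without replicate 1 and -0.015 without replicate 3, and -0.56 with array weights and -0.68 without both replicates 1 and 3.

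**Figure D4:**
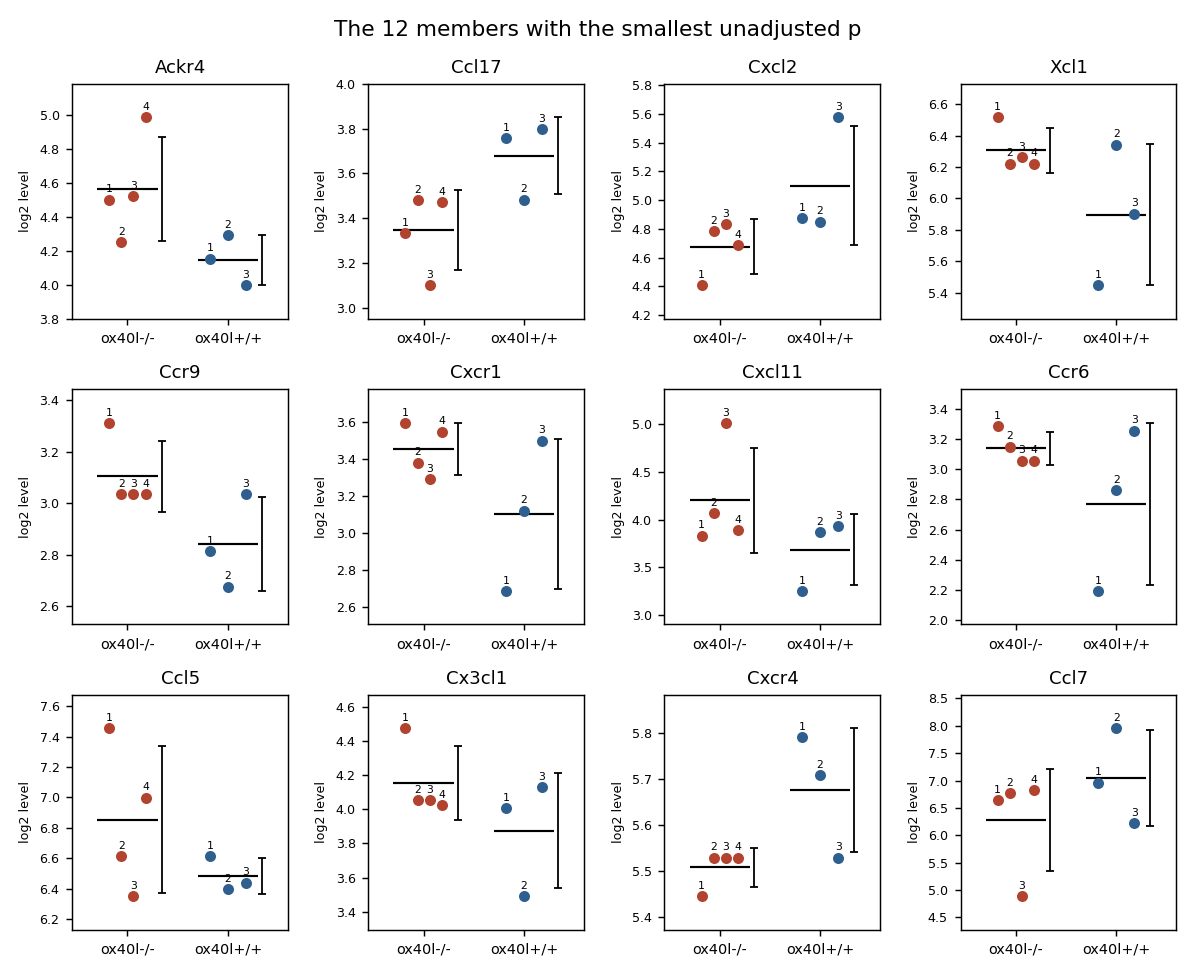
Log2 level per array (points, numbered by replicate; 4 ox40l-/- left, 3 ox40l+/+ right), group mean (line) and SD (bar) for the 12 members with the smallest unadjusted p. Genotypes overlap or touch in all panels except Ccl17 and Cxcl2, whose gaps are 0.00187 and 0.0190.

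The homeostatic and other CXC ligands had differences of both signs, 2 positive and 3 negative. Cxcl13, which attracts CXCR5-bearing B cells and follicular T cells, was at 5.40, 6.06, 8.54 and 6.06 in ox40l-/- skin, against 5.89, 7.20 and 5.61 in ox40l+/+ skin. Replicate 3 of ox40l-/- was the highest of the 7 arrays, and the difference was 0.29 (SE 0.77, 95% confidence interval -1.52 to 2.09, leave-one-out range -0.39 to 0.77). It was -0.39 without that array and 0.77 without ox40l+/+ replicate 2. The 3 measured B cell markers averaged 3.04 on that array and 3.02 to 3.34 on the other ox40l-/- arrays, against 2.59 to 3.57 in ox40l+/+ skin, and Cxcr5 was at 3.26 to 3.63 in ox40l-/- skin and 2.90 to 3.63 in ox40l+/+ skin. Cxcl14, a chemokine of the epidermis and hair follicle, was at 6.70, 6.50, 6.74 and 6.14 in ox40l-/- skin, against 8.53, 6.95 and 5.89 in ox40l+/+ skin. Replicate 1 of ox40l+/+ was highest, and on it the 8 hair follicle markers (0 of 8 higher in ox40l-/- skin) averaged 8.42, against 3.57 to 5.06 in ox40l-/- and 5.53 and 4.28 on the other ox40l+/+ arrays. The keratinocyte, dermal fibroblast and pan-leukocyte markers also averaged highest on ox40l+/+ replicate 1. Follicle content was not tested as a part of the Cxcl14 value there. The Cxcl14 difference was -0.61 (SE 0.56, 95% confidence interval -1.91 to 0.70, leave-one-out range -1.22 to 0.097). It was 0.097 without ox40l+/+ replicate 1 and -1.22 without ox40l+/+ replicate 3. Cxcl12, a stromal ligand, was at 5.24, 5.17, 5.60 and 5.34 in ox40l-/- skin, against 5.89, 5.26 and 4.70 in ox40l+/+ skin and differed by 0.05 (SE 0.28, leave-one-out range -0.24 to 0.36). Its receptor Cxcr4 was at 5.44, 5.53, 5.53 and 5.53 in ox40l-/- skin, against 5.79, 5.71 and 5.53 in ox40l+/+ skin, with the value shared exactly by ox40l-/- replicates 2, 3 and 4 also on ox40l+/+ replicate 3, and a difference of -0.17 (SE 0.13, 95% confidence interval -0.47 to 0.13, leave-one-out range -0.24 to -0.11). Cxcl16, which binds CXCR6, lay at 5.25 to 5.70 in ox40l-/- skin and 5.40 to 6.12 in ox40l+/+ skin, and Cxcl17, a mucosal chemokine, at 5.03 to 5.41 in ox40l-/- skin and 4.62 to 5.94 in ox40l+/+ skin.

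The remaining CC ligands overlapped as well. Ccl19, which draws CCR7-bearing dendritic cells and naive T cells to lymphoid tissue, was at 6.82, 6.91, 7.02 and 7.25 in ox40l-/- skin, against 6.02, 7.46 and 6.18 in ox40l+/+ skin. Replicates 1 and 3 of ox40l+/+ lay below all ox40l-/- arrays and replicate 2 above them; the difference was 0.45 (SE 0.35, 95% confidence interval -0.36 to 1.27, leave-one-out range 0.19 to 0.91). It was 0.91 without ox40l+/+ replicate 2, 0.19 without replicate 1 and 0.27 without replicate 3, and turned to -0.33 with array weights and -0.45 without both replicates 1 and 3. Ccr7, its receptor, lay at 4.45 to 5.13 in ox40l-/- skin and 4.23 to 5.70 in ox40l+/+ skin. Ccl8, a CCR8 ligand in mice, was at 7.45, 7.80, 7.76 and 7.76 in ox40l-/- skin, against 8.34, 7.96 and 6.40 in ox40l+/+ skin, with replicate 3 of ox40l+/+ below every other array and replicate 1 above. The difference was 0.13 (SE 0.44, 95% confidence interval -0.89 to 1.15, leave-one-out range -0.46 to 0.52). Ccl1, the other CCR8 ligand, lay at 2.81 to 3.38 in ox40l-/- skin and 2.83 to 4.53 in ox40l+/+ skin, and Ccr8 at 2.20 to 2.92 in ox40l-/- skin and 2.11 to 2.56 in ox40l+/+ skin. Of the eosinophil attractants that bind CCR3, Ccl11 lay at 6.41 to 7.12 in ox40l-/- skin and 6.22 to 6.80 in ox40l+/+ skin and Ccl24 at 3.48 to 3.67 in ox40l-/- skin and 3.38 to 4.13 in ox40l+/+ skin, and Ccr3 lay at 2.05 to 2.26 in ox40l-/- skin and 2.01 to 2.11 in ox40l+/+ skin. Ccl26 lay at 3.04 to 3.27 in ox40l-/- skin and 2.54 to 3.58 in ox40l+/+ skin. Ccl20, a CCR6 ligand of inflamed epithelium, lay at 3.38 to 4.19 in ox40l-/- skin and 3.13 to 3.98 in ox40l+/+ skin. Ccl25 lay at 3.16 to 3.75 in ox40l-/- skin and 3.15 to 4.08 in ox40l+/+ skin. Ccl28, a CCR10 ligand, lay at 3.13 to 3.57 in ox40l-/- skin and 2.94 to 3.72 in ox40l+/+ skin.

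Xcl1 and Cx3cl1, the single XC and CX3C ligands measured, both had higher means in ox40l-/- skin without passing the test. Xcl1, made by NK cells and CD8+ T cells, was at 6.52, 6.22, 6.26 and 6.22 in ox40l-/- skin, against 5.45, 6.34 and 5.90 in ox40l+/+ skin. Replicate 1 of ox40l+/+ was lowest and replicate 2 lay inside the ox40l-/- range, with a difference of 0.41 (SE 0.22, 95% confidence interval -0.11 to 0.93, leave-one-out range 0.18 to 0.63) at an unadjusted p of 0.108. The 4 NK markers averaged 3.80 on ox40l+/+ replicate 1, against 4.86 to 5.18 in ox40l-/- skin and 4.82 and 5.09 on the other ox40l+/+ arrays, and all 4 had higher means in ox40l-/- skin. The T cell, B cell, eosinophil, platelet and erythroid markers also averaged lowest on ox40l+/+ replicate 1. The part of NK cell content in the Xcl1 values was not tested. Xcr1, the receptor on cross-presenting dendritic cells, lay at 3.21 to 3.41 in ox40l-/- skin and 3.02 to 3.94 in ox40l+/+ skin. Cx3cl1, a membrane-bound ligand, was at 4.47, 4.06, 4.06 and 4.02 in ox40l-/- skin, against 4.00, 3.49 and 4.13 in ox40l+/+ skin, and its difference was 0.28 (SE 0.21, 95% confidence interval -0.20 to 0.76, leave-one-out range 0.085 to 0.40). Cx3cr1, its receptor on monocytes and macrophages, was at 5.42, 5.30, 4.85 and 4.71 in ox40l-/- skin, against 4.50, 5.29 and 5.97 in ox40l+/+ skin, with the ox40l+/+ arrays at both ends.

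None of the signalling receptors separated the genotypes. Of the differences of all 18, 11 were positive and 7 negative, with a median of 0.11. The means of 11 of the 18 lay below the median gene level of 3.60, those of Ccr9, Ccr6 and Ccr10 among them. Whether such low values were above background was not tested, so overlap there says little about expression. Ccr9, a gut-homing receptor, was at 3.31, 3.04, 3.04 and 3.04 in ox40l-/- skin, against 2.81, 2.68 and 3.04 in ox40l+/+ skin, where the ox40l-/- minimum and the ox40l+/+ maximum were the same value. Its difference was 0.26 (SE 0.15, 95% confidence interval -0.09 to 0.62, leave-one-out range 0.18 to 0.36). Ccr6, a receptor of type 17 T cells and other lymphocytes, was at 3.29, 3.15, 3.06 and 3.06 in ox40l-/- skin, against 2.19, 2.86 and 3.26 in ox40l+/+ skin and differed by 0.37 (SE 0.25, 95% confidence interval -0.22 to 0.95, leave-one-out range 0.078 to 0.61). The low value of Ccr6 was on ox40l+/+ replicate 1. Ccr10, a skin-homing receptor of T cells, was at 2.66, 2.45, 2.91 and 2.96 in ox40l-/- skin, against 2.39, 2.54 and 3.52 in ox40l+/+ skin and differed by -0.07 (SE 0.29, leave-one-out range -0.29 to 0.28). Ccr1 lay at 3.09 to 3.82 in ox40l-/- skin and 2.67 to 3.49 in ox40l+/+ skin, Ccr1l1 at 2.09 to 2.88 in ox40l-/- skin and 1.88 to 2.09 in ox40l+/+ skin and Cxcr6 at 3.18 to 4.01 in ox40l-/- skin and 3.92 to 3.96 in ox40l+/+ skin.

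All 4 atypical receptors had positive differences, with a median of 0.28, and the smallest unadjusted p of the 58 genes, 0.0692, belonged to Ackr4. Ackr4, which takes up CCL19 and other homeostatic chemokines, was at 4.50, 4.25, 4.52 and 4.99 in ox40l-/- skin, against 4.15, 4.29 and 4.00 in ox40l+/+ skin. Replicates 1, 3 and 4 of ox40l-/- lay above all ox40l+/+ arrays, and ox40l-/- replicate 2 lay below ox40l+/+ replicate 2. The difference was 0.42 (SE 0.20, 95% confidence interval -0.04 to 0.88, leave-one-out range 0.28 to 0.52), a ratio of 1.34. It kept its sign in all alternatives run, from 0.265 with array weights to 0.52 without ox40l-/- replicate 2, with limma adjusted p from 0.443 up to 1. The sign held likewise for 11 of the 22 named members, Ackr4 included. All of these were among the 12 with the smallest unadjusted p in these same data, a choice that favours kept signs. Ackr1, carried by venules and red cells, was at 5.05, 5.05, 5.84 and 5.15 in ox40l-/- skin, against 4.81, 5.73 and 4.18 in ox40l+/+ skin, with a difference of 0.37 (SE 0.38, 95% confidence interval -0.52 to 1.26, leave-one-out range 0.0046 to 0.78). Ackr2, a scavenger of inflammatory CC chemokines, differed by 0.20 (SE 0.25, leave-one-out range -0.069 to 0.34), and Ackr3, a scavenger of CXCL12, by 0.03 (SE 0.22, leave-one-out range -0.17 to 0.22).

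Genes below the receptors did not pass the test either. Of 24 listed signalling genes, such as G protein subunits, phosphoinositide kinases, arrestins and RGS proteins, 23 were measured; 8 differences were positive and 15 negative, with a median of -0.05, and 0 had an unadjusted p under 0.05. Of 13 listed genes for chemokine processing and other chemoattractant receptors, 12 were measured, 5 positive and 7 negative, with a median of -0.03, and 0 had an unadjusted p under 0.05. S1pr1, a lymphocyte egress receptor, was the only gene of both lists whose genotypes did not overlap, and it was chosen for mention after its values were seen. It was at 4.36, 4.59, 4.49 and 4.30 in ox40l-/- and at 4.20, 4.30 and 3.82 in ox40l+/+ skin, with the nearest values 0.0028 apart. That is 1 of 35 measured genes, where 1.1% of all genes had every ox40l-/- array above every ox40l+/+ array.

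Single arrays decided how many of the 58 genes had an unadjusted p under 0.05. Without ox40l+/+ replicate 3 there were 9 (15.5%), Ccl8, Ccl9, Ccl26, Ccr2, Ccr6, Ccr9, Cxcl14, Cxcr1 and Cxcr5, while 12% of all genes passed that threshold. Without ox40l+/+ replicate 2 there were 5 (8.62%), Ackr1, Ccl17, Ccl19, Pf4 and Xcl1, against 3.48% of all genes, and without replicate 1 there were 0, against 3.18%. Without ox40l-/- replicate 2 there was 1 (1.72%), Ackr4, against 1.31%. Of all genes, 3.09% passed after quantile normalization again (1 member) and 7.51% with array spread as a covariate (4 members, 6.9%). Without both ox40l+/+ replicates 1 and 3 there were 5 (8.62%), Pf4, Ccl9, Ccr2, Cx3cl1 and Ccr9, against 8.73% of all genes, with the lone ox40l+/+ array assumed to vary like the ox40l-/- arrays. With array weights there were 10 (17.2%), Ccl12, Ccl7, Ccl9, Ccr2, Ccr9, Cx3cl1, Cxcr1, Cxcr4, Cxcr5 and Pf4, against 13% of all genes. Members without overlap numbered 5 (8.62%), 8 (13.8%) and 15 (25.9%) without ox40l+/+ replicates 1, 2 and 3, against 7.84%, 8.59% and 21.4% of all genes. In each of these runs 0 of 58 had a limma adjusted p under 0.05. Set against ox40l+/+ replicate 2 alone, that array lay above all ox40l-/- arrays for 17 of the 58 (29.3%) and below them for 7 (12.1%), where the shares of all genes were 17.1% and 20.3%.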

How the data were processed

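The deposited values are log2 levels made by the authors with RMA, per the submitters' processing notes, with 1 array for each of the 7 samples. No version, probe-set definition or genome build was named in the sources read. Of 25206 probe sets, 23185 had 1 symbol, 0 had several and 2021 were unnamed here, and all 58 members kept their symbol in the RefSeq table. Values were used as deposited. limma 3.58.1 (R 4.3.3; lmFit, eBayes, two-sided) gave the genotype differences, and p-values were adjusted by Benjamini-Hochberg over the 23185 genes, with a threshold of 0.05. The fit was tested on simulated data. The number of arrays limits the precision. Nothing says that the arrays came from separate animals, so p-values cover only the spread between samples, technical or not. Plots were drawn with matplotlib 3.10.9.

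Members, lists and the run without ox40l+/+ replicates 1 and 3 were chosen with earlier results of these data known. By rule, every array's value is given for members whose genotypes do not overlap, the 12 smallest p and the 4 highest means. It is also given for Ccl2 with Ccr2, Cxcl12 with Cxcr4, Cxcl9 and Cxcl10 with Cxcr3, and Ccr10. The ligand paired with Ccr10 in that rule, Ccl27a, was not analysed here, while Ccl28, another CCR10 ligand, was. Ccl12, Cxcl13, Cxcl14, Cx3cr1, Ackr1 and Ccl3 were added after their values were seen. Alternatives were renormalization, centring, filters on the dimmest 30% or 50% of genes, other moderation, blocks, all probe sets, array spread and leaving out arrays. The planned REML array weights stopped before converging, so weights estimated gene by gene were used, a choice made after seeing the data but before the members' calls under them. Sample codes of unstated meaning were tried as blocks. Code numbers 16 and 19 held only ox40l-/- arrays, 17 only ox40l+/+ arrays and 18 both. Number and genotype were thus largely confounded, and that block can separate them only in part.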

Additional observations from a re-analysis of the deposited data

Results flagged for a closer look

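Within ox40l-/- skin, 14 of the 58 genes had 1 array whose distance to the nearest other was above Dixon's 95% critical value, as a share of the group's range. That is 24.1% of the 58, against 20.3% of all genes. Chance flags about 1 in 20 groups, and 10 of the 14 had a range under 0.5, often with exactly equal values on the other arrays. Replicate 1 and replicate 3 were each the outlying array for 6 of them. Replicate 3 was lowest for Ccl7 (4.89) and Cxcr6 (3.18), and highest for Ackr1 (5.84), Ccr1l1 (2.88), Ccl28 (3.57) and Ccl26 (3.27). Replicate 1 was highest for Cx3cl1 (4.47), Xcl1 (6.52), Ccr9 (3.31) and Ccl22 (3.67), and lowest for Ccl8 (7.45) and Cxcr4 (5.44). Replicate 4 was lowest for Ccl24 (3.48), and replicate 2 highest for Cxcr5 (3.63). What set these arrays apart was not tested.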

How the results depend on the processing

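With all 7 arrays no member had an unadjusted p under 0.05 in limma. The count was 1 after quantile normalization again (Ackr4), 10 with array weights (estimated gene by gene, since the planned REML estimate stopped before converging), 5 without ox40l+/+ replicates 1 and 3, and 4 with the spread of each array as a covariate (Cxcl2, Cxcr2, Ccl24 and Ackr4), where 3.09%, 13%, 8.73% and 7.51% of all genes passed. It ran from 0 to 9 when single arrays were left out. The replicate block, which in effect drops ox40l-/- replicate 4, gave 1 member at an unadjusted p under 0.05 (Ccl7), against 1.08% of all genes. Same-numbered deviations from the group means correlated at -0.086, -0.145 and 0.034, so no pairing by replicate number was seen. With so few arrays these values cannot exclude one. No member passed at an adjusted p under 0.05 in any alternative run. Members without overlap numbered 1 after quantile normalization again or without the dimmest 50% of genes, runs for which no share of all genes is given here. They numbered from 2 to 15 with single arrays left out. Without 1 ox40l-/- array there were 2 or 3 (3.45% or 5.17%), against 3.09% to 3.86% of all genes. Without ox40l+/+ replicates 1, 2 and 3 there were 5, 8 and 15, where 7.84%, 8.59% and 21.4% of all genes did not overlap. The median difference of the 58 was 0.08 with all 7 arrays and ran from -0.03 to 0.16 in the alternatives. It turned negative with array weights (-0.034), without ox40l+/+ replicate 1 (-0.030) and without both ox40l+/+ replicates 1 and 3 (-0.027). Each shift was within 1 SD between arrays (0.12), a band wide enough to hold a change of sign. Of 412 single differences of 22 named members, 385 kept their sign. Part of that count was fixed in advance, since other moderation, the filters and all probe sets leave a difference unchanged. Naming members by their smallest unadjusted p in these same data also favours kept signs. The replicate block also gives the same differences as the run without ox40l-/- replicate 4. With array weights the sign turned for Ccl19 (-0.33), Ccl8 (-0.20), Ccr10 (0.14), Ccr2 (-0.77), Cxcl9 (-0.079) and Pf4 (-0.56). Without both ox40l+/+ replicates 1 and 3 it turned for Ccl19 (-0.45), Ccl8 (-0.27), Ccr10 (0.20), Ccr2 (-0.90), Cxcl10 (0.030), Cxcl9 (-0.12), Pf4 (-0.68) and Xcl1 (-0.037), and under the replicate block for Ccr2 (-0.044). With single arrays left out, differences that changed sign ran from -0.98 to 0.085 for Ccl2, -0.46 to 0.52 for Ccl8, -0.29 to 0.28 for Ccr10 and -0.61 to 0.59 for Ccr2. They ran from -0.24 to 0.36 for Cxcl12, -0.034 to 0.47 for Cxcl9, -0.0023 to 0.25 for Cxcr3 and -0.017 to 0.65 for Pf4. The cause was not tested.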
